A study of Mus musculus with 63 samples.

Results

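The miR-191 and miR-425 cluster was followed through 4 cell types sorted from mouse kidney. Its 3 members, mmu-miR-191-5p, mmu-miR-425-5p and mmu-miR-425-3p, were taken by name from a table of 2110 miRNA loci with 1966 names, each being the only locus of its name. The members were selected on their levels in these libraries, which were known when the list was drawn up, so their values are given as a description without a test. The opposite arm of the miR-191 hairpin, mmu-miR-191-3p, was not a member and was tested.

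Male C57BL/6 mice of 8 to 12 weeks had sham surgery, unilateral ureteric obstruction for 2 days (UUO-2) or 7 days (UUO-7), or obstruction for 7 days followed by reimplantation of the ureter and 14 days of reversal (R-UUO). Each of the 4 conditions had 4 mice, and from each kidney 4 populations were collected by FACS for small RNA sequencing. They were CD31+ endothelial cells (ECs), F480+ macrophages (Macs), stromal cells positive for PDGFR-β, and proximal tubular cells, sorted on LTL binding (PT cells). This gave 63 libraries, 4 in every group except UUO-7 PDGFR-β+ cells, where 3 were deposited after the study removed an outlier. The sequenced mice were those with Havcr1 expression nearest their group mean. Each library is a bulk RNA sample of sorted cells, so fewer cells of a type carrying a miRNA and less of it per cell cannot be told apart.

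Library totals ranged from 616565 to 10819385 counts, with a median that was lowest in PT cells, at 1043053.5, followed by 3018038.5 in Macs, 4263852 in PDGFR-β+ cells and 7577134.5 in ECs. The marker miRNAs of each sort were highest in their own sort, except miR-215-5p among those of PT cells. The summed level of miR-142a-3p, miR-142a-5p and miR-223-3p was 14702.7 to 41962.3 CPM (counts scaled to a common library size) in Macs and at most 698.0 CPM elsewhere, that of both miR-126a arms was at least 93085 CPM in ECs and at most 3523 CPM elsewhere, and that of 5 miRNAs of the miR-143, miR-145a, miR-199a and miR-214 hairpins was at least 92506 CPM in PDGFR-β+ cells. The same stromal sum reached 46029 CPM in ECs and 25835 CPM in PT cells. Of the 3 PT markers, miR-192-5p and miR-194-5p were highest in PT cells and miR-215-5p was highest in PDGFR-β+ cells. The 5 miR-200 family miRNAs of other epithelial cells were also highest in PT cells, at 5518 to 11187 CPM, and the erythroid pair miR-451a and miR-144-3p stayed at or below 10.5 CPM everywhere.

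A miRNA is cut from a hairpin that yields a 5p and a 3p arm, of which 1 is usually loaded into Argonaute and kept while the other is degraded. The loaded strand finds mRNAs mainly through its seed, bases 2 to 8 from the 5′ end. The hairpins of miR-191 and miR-425 lie side by side and are made from a shared primary transcript of their host gene, Dalrd3. miR-191-5p is abundant in many tissues and has often been used as a reference in RT-qPCR.

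The seeds are printed because they show which arms could share target sites. Mature sequences from RefSeq (GRCm38.p6, plus strand unless said otherwise) were found for all 4 arms, at the same positions as the loci of the table, and are written 5′ to 3′ with the seed in capitals.
miR-191-5p: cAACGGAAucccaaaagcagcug
miR-191-3p: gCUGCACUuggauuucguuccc
miR-425-5p: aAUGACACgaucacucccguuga
miR-425-3p: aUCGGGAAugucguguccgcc
miR-489-3p: aAUGACACcacauauauggcagc
They lie at chr9:108568325-108568347, chr9:108568367-108568388, chr9:108568789-108568811, chr9:108568830-108568850 and, on the minus strand, chr6:3721922-3721944. The 4 arms of the cluster have 4 different seeds. Among 1738 mature mouse miRNAs in the reference, only miR-489-3p shares a seed with any of them, that of miR-425-5p.

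The hairpins are shown because both arms of each were measured. Capitals mark the 5p and the 3p arm.
Mir191: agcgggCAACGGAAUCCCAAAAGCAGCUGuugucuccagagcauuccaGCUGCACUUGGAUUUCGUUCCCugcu
Mir425: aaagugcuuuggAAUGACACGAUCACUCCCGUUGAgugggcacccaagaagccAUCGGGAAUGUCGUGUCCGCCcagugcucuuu
Mir191 spans chr9:108568319-108568392 and Mir425 spans chr9:108568777-108568861, with 384 bases between them. Both fall inside the RefSeq gene Dalrd3 (chr9:108567484-108572773), a protein with a DALR anticodon-binding domain. The GENCODE vM21 model of Dalrd3 starts downstream of both hairpins, at 108569886, so an exon or intron was not assigned. The gene Ndufaf3, an assembly factor of mitochondrial complex I, lies upstream of both hairpins and ends at 108567436 in RefSeq.

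The arms differed widely in abundance. Over all 63 libraries miR-191-5p had 3938056 counts, miR-425-5p had 70769, miR-425-3p had 3710 and miR-191-3p had 1993. miR-191-3p therefore made up 0.0506% of the counts of its hairpin, and miR-425-3p made up 4.98% of those of its own. All 4 arms had counts in all 63 libraries, but the lowest counts were 10571 for miR-191-5p, 116 for miR-425-5p, 4 for miR-425-3p and 2 for miR-191-3p, so the values of the 3p arms carry a larger counting error.

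Levels were compared between cell types in CPM after TMM scaling over all libraries, with 671 loci past the low-count filter. miR-191-5p averaged 26336 CPM ± 7587 (SD, n = 16) in Macs, 14718 ± 1918 (n = 16) in PT cells, 10916 ± 1151 (n = 16) in ECs and 10032 ± 2415 (n = 15) in PDGFR-β+ cells. It was the 7th most abundant locus in Macs, the 12th in PT cells, the 18th in PDGFR-β+ cells and the 20th in ECs. Macs lay above ECs and above PDGFR-β+ cells in every library of the series, from a Mac minimum of 15350 CPM to an EC maximum of 13002 and a PDGFR-β+ maximum of 13934. Macs and PT cells overlapped at UUO-2, where Macs had 15350 to 18520 CPM and PT cells 12709 to 15510. PT cells lay above ECs in 3 of 4 conditions and above PDGFR-β+ cells in 3 of 4. ECs and PDGFR-β+ cells, the lowest 2 in the order, did not overlap in 2 conditions, with ECs above, and overlapped in the other 2.

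miR-425-5p had the same leading cell type with a wider gap. It averaged 533 CPM ± 127 (SD, n = 16) in Macs, 188 ± 34.9 (n = 16) in PT cells, 129 ± 29.7 (n = 15) in PDGFR-β+ cells and 116 ± 24.0 (n = 16) in ECs. The lowest Mac library, at 324 CPM, exceeded the highest library of any other sort, at 242 CPM in PT cells. PT cells lay above ECs in 3 of 4 conditions and above PDGFR-β+ cells in 3 of 4, whereas ECs and PDGFR-β+ cells overlapped in 3 of 4.

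miR-425-3p averaged 25.2 CPM ± 11.1 (SD, n = 16) in Macs, 10.9 ± 5.75 (n = 15) in PDGFR-β+ cells, 8.33 ± 2.58 (n = 16) in ECs and 8.33 ± 3.45 (n = 16) in PT cells. Macs lay above ECs and above PT cells in all 4 conditions, and above PDGFR-β+ cells in 2. ECs and PT cells overlapped in all 4 conditions. Within single mice, the Mac library was the highest of the sorts in 16 of 16 mice for miR-191-5p and for miR-425-5p, and in 14 of 16 for miR-425-3p. No share of all loci is given for the order within mice or for pairs of sorts, so neither is shown to be particular to the members.

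**Figure D1:**
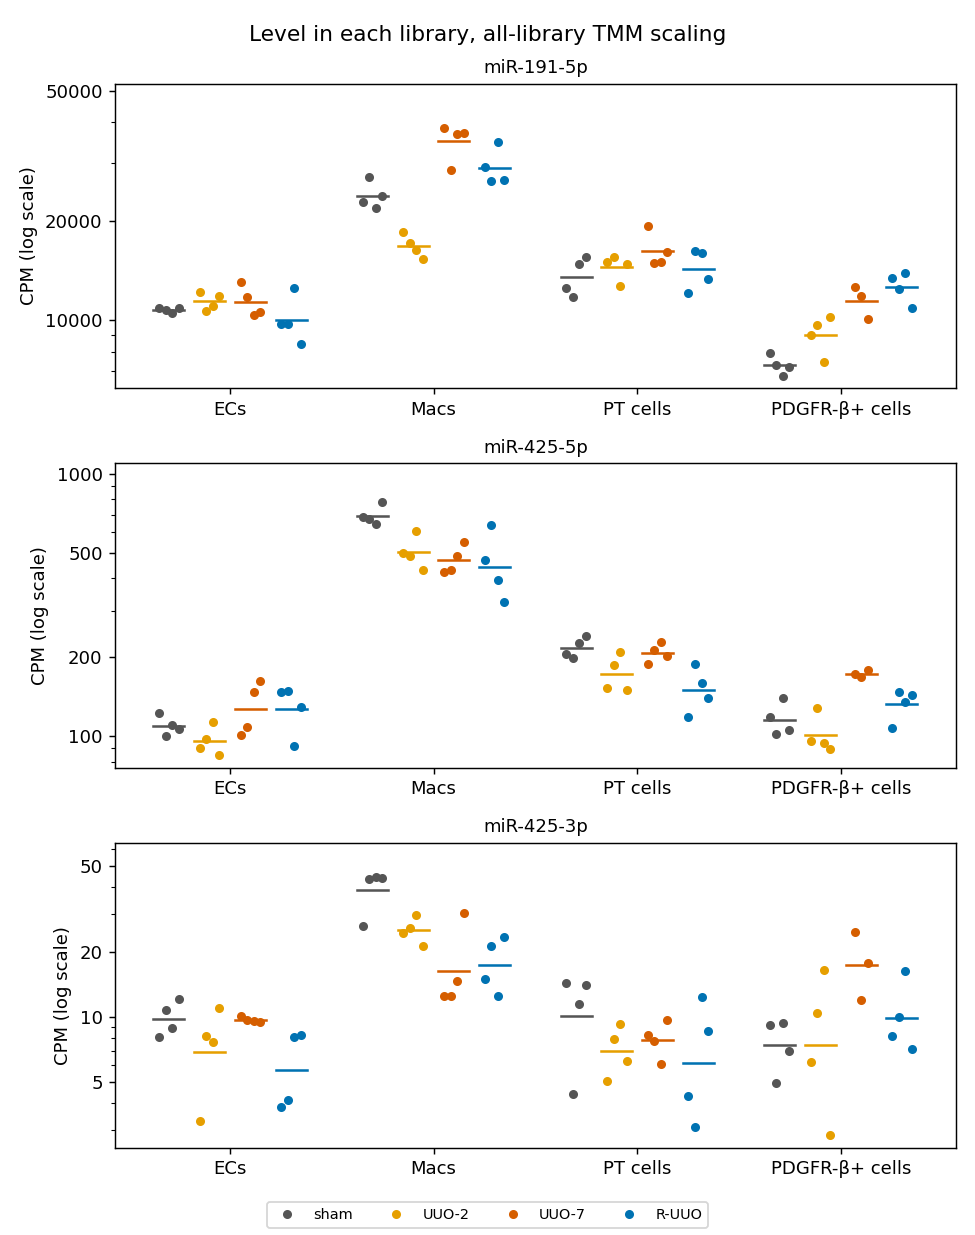
Level of each member in every library (points, CPM after all-library TMM scaling, log axis), by cell type and condition, with the geometric mean of a group as a line. Averaged over the conditions, Macs stand highest for all 3 members. At UUO-7, however, the arithmetic mean of miR-425-3p was 17.6 CPM in Macs and 18.2 CPM in PDGFR-β+ cells. The lowest Mac library of miR-425-5p, at 324 CPM, is above every library of the other sorts.

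In the edgeR fit over all libraries, the Mac level minus the mean of the other 3 sorts was 1.12 on the log2 scale (SE 0.048) for miR-191-5p, 1.90 (SE 0.065) for miR-425-5p and 1.41 (SE 0.141) for miR-425-3p. For scale, 22.1%, 14.2% and 19.1% of the loci tested had a larger Mac difference than these members. The EC difference was -0.50 (SE 0.053), -1.01 (SE 0.076) and -0.65 (SE 0.159) in the same order, and the PDGFR-β+ difference was -0.69 (SE 0.055), -0.80 (SE 0.077) and -0.10 (SE 0.159). PT cells were near the mean of the other sorts for miR-191-5p (0.07, SE 0.051) and miR-425-5p (-0.09, SE 0.072) and lower for miR-425-3p (-0.66, SE 0.172). With library size alone in place of TMM the Mac difference grew to 2.09, 2.86 and 2.38, because TMM factors were 1.37 to 2.01 in Macs and 0.472 to 0.769 in ECs, and the Mac difference of all loci moved up by a median of 0.96. The PT difference of miR-425-5p then became 0.20, and that of miR-191-5p became 0.36.

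miR-425-5p was the only member whose Mac libraries stood apart from all other libraries over the 4 conditions. Of the loci tested, 8.64% stood apart in Macs, either above or below all other libraries. The share was 3.43% in PT cells, 2.68% in PDGFR-β+ cells and 2.24% in ECs. Within a condition, all Mac libraries lay above all others for all 3 members in sham, where 15.6% of loci did so, and for both miR-425 arms at UUO-2, where 16.1% did. At UUO-7, where 14.0% of loci did so, and at R-UUO, where 10.4% did, miR-191-5p and miR-425-5p had every Mac library on top and miR-425-3p did not.

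The opposite arm of miR-191 was tested over the same libraries. miR-191-3p averaged 11.4 CPM ± 4.11 (SD, n = 16) in Macs, 7.91 ± 3.69 (n = 16) in PT cells, 7.81 ± 2.84 (n = 15) in PDGFR-β+ cells and 4.11 ± 1.66 (n = 16) in ECs. It was higher in Macs by 0.88 on the log2 scale (SE 0.138, adjusted p = 1.14e-07, edgeR quasi-likelihood test with Benjamini-Hochberg adjustment over 671 loci), where 57.2% of loci passed at an adjusted p below 0.05 and a fold change above 1.5. It was lower in ECs by 1.16 (log2 difference -1.16, SE 0.159, edgeR adjusted p = 4.74e-09), where 52.5% of loci passed. It did not pass in PT cells (0.19, SE 0.157, edgeR adjusted p = 0.309) or in PDGFR-β+ cells (0.09, SE 0.150, edgeR adjusted p = 0.658), where 59.8% and 51.0% of loci passed. miR-191-3p was lowest in ECs in 14 of 16 mice, and miR-191-5p was lowest in PDGFR-β+ cells in 10 of 16 and in ECs in 6. The lowest sort of miR-191-5p depended on the scaling, since with library size alone its difference was -1.30 in ECs and -1.15 in PDGFR-β+ cells.

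Changes with obstruction and reversal were read within each cell type, with the filter and TMM scaling rerun on that sort alone, so the CPM values that follow are on another scale than those above. In the 5 comparisons of each sort, the libraries of the compared groups did not overlap in 16 of 60 pairs of a member and a comparison (26.7%). Over all loci tested in these sorts the share was 29.9%, so separation of the members was about as frequent as that of any locus. miR-191-5p accounted for 7 of the 16, miR-425-5p for 6 and miR-425-3p for 3. By sort, 7 were in PDGFR-β+ cells, 6 in Macs, 2 in ECs and 1 in PT cells.

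In Macs the members moved apart from each other at UUO-7 and R-UUO. miR-191-5p was at 35017, 35611, 35709 and 42569 CPM in sham, at 28176, 28781, 30964 and 31213 at UUO-2, at 50051, 56581, 67433 and 68491 at UUO-7, and at 42403, 45241, 48352 and 53702 at R-UUO. All UUO-2 libraries lay below sham and all UUO-7 libraries above it, while R-UUO overlapped sham by a narrow margin. The difference from sham was -0.32 on the log2 scale (SE 0.111) at UUO-2, 0.70 (SE 0.112) at UUO-7 and 0.35 (SE 0.111) at R-UUO, beside medians over all loci of 0.15, 0.22 and 0.12. From UUO-2 to UUO-7 it was higher by 1.03 (SE 0.112), the largest difference of miR-191-5p in the 20 comparisons, and those libraries did not overlap either.

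miR-425-5p, from the neighbouring hairpin, was lower than in sham like miR-191-5p at UUO-2, and took the opposite direction at UUO-7 and R-UUO. It was at 1045, 1056, 1066 and 1153 CPM in sham Macs, at 805, 845, 876 and 1050 at UUO-2, at 738, 753, 839 and 906 at UUO-7, and at 551, 608, 776 and 1016 at R-UUO. Every UUO-7 and every R-UUO library lay below every sham library, and 1 UUO-2 library reached into the sham range. The difference from sham was -0.27 (SE 0.163), -0.42 (SE 0.163) and -0.55 (SE 0.164) on the log2 scale at UUO-2, UUO-7 and R-UUO.

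miR-425-3p, the minor arm, was also lower in injured Macs. It was at 41.1, 64.8, 68.4 and 72.3 CPM in sham, at 40.2, 41.5, 46.6 and 51.3 at UUO-2, at 21.9, 22.0, 27.5 and 46.3 at UUO-7, and at 19.4, 24.8, 34.0 and 39.9 at R-UUO. The R-UUO libraries lay below sham without overlap, whereas 1 high UUO-7 library and 1 low sham library overlapped. The differences from sham were -0.45 (SE 0.261), -1.06 (SE 0.269) and -1.07 (SE 0.270). Without replicate 5, which holds the high UUO-7 library, the UUO-7 difference was -1.51.

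The marker miRNAs of the Mac sort also shifted with condition. On the all-library scale their summed level was 34889 to 41962 CPM in sham, 24044 to 29710 at UUO-2, 17975 to 21209 at UUO-7 and 14703 to 27644 at R-UUO, so every injured group lay below sham. The stromal sum in Macs was 1994 to 4985 CPM in sham, 3149 to 4616 at UUO-7 and 6780 to 9589 at R-UUO, and only the R-UUO libraries among these lay above sham. The PT marker sum in Macs was 3511 to 5216 CPM in sham and at most 3241 CPM in the other conditions. The part of these shifts in the members' differences was not tested.

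Non-overlap was common among Mac miRNAs. It held for 39.6% of 457 loci at UUO-2 against sham, 47.3% at UUO-7, 32.8% at R-UUO, 41.8% from UUO-2 to UUO-7 and 23.2% from UUO-7 to R-UUO. The shares past the edgeR test were 27.6%, 43.1%, 31.9%, 30.6% and 19.9% in the same order. miR-191-3p passed in none of these 5, with differences from -0.60 to 0.09.

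**Figure D2:**
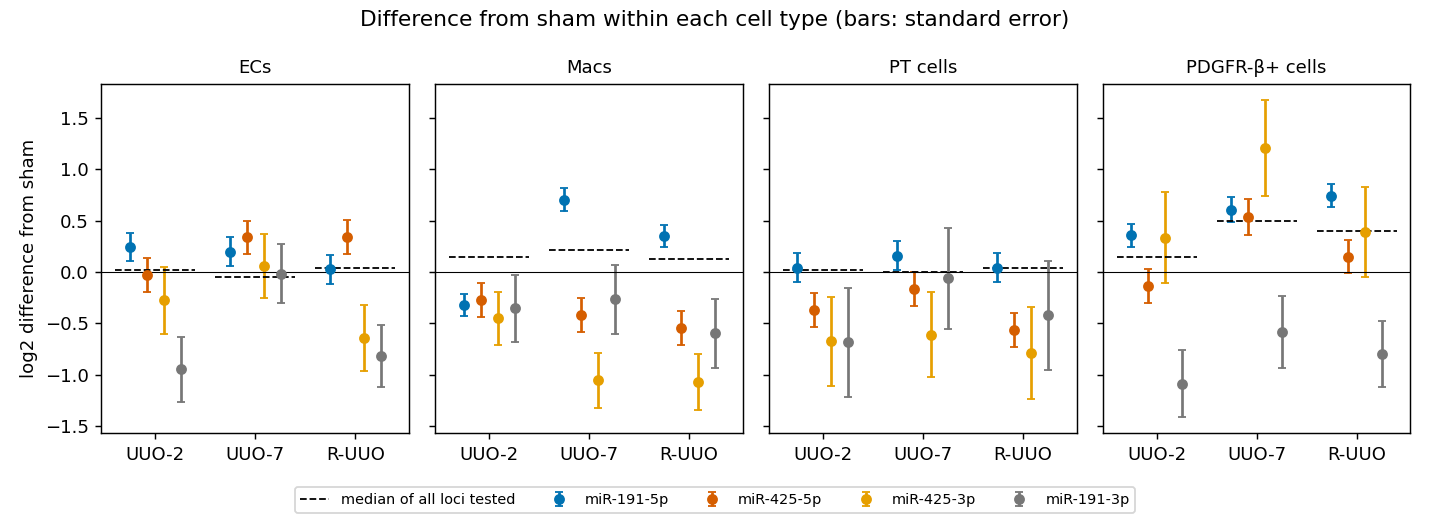
Log2 difference from sham with its standard error (points and bars) for the 3 members and miR-191-3p at UUO-2, UUO-7 and R-UUO in each cell type, with the median of all loci tested as a dashed line. In Macs at UUO-7 miR-191-5p is at 0.70 and miR-425-5p at -0.42. In PDGFR-β+ cells at UUO-7 both lie near the median of all loci, 0.50.

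In PDGFR-β+ cells the cluster was higher at UUO-7 as a whole, but so was the typical miRNA. miR-191-5p was at 5107, 5745, 5766 and 6353 CPM in sham, at 6089, 7696, 7757 and 7911 at UUO-2, at 8063, 9074 and 9090 at UUO-7, and at 8815, 8954, 9729 and 10908 at R-UUO. The UUO-7 and R-UUO libraries lay above all sham libraries, and the UUO-7 libraries also lay above those of UUO-2. With TMM scaling over all libraries UUO-7 (from 10062 CPM) and UUO-2 (up to 10186 CPM) overlapped. From UUO-2 to UUO-7 miR-191-5p was higher by 0.25 (SE 0.119), less than the median over all loci of 0.38. The difference from sham was 0.36 (SE 0.111), 0.61 (SE 0.119) and 0.74 (SE 0.111), beside medians over all loci of 0.15, 0.50 and 0.40.

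The stromal markers of this sort were lower in the same libraries. Their sum on the all-library scale was 326432 to 398693 CPM in sham, 204502 to 400844 at UUO-2, 145388 to 174139 at UUO-7 and 92506 to 159541 at R-UUO, without overlap between sham and the latter 2 groups. The Mac marker sum in PDGFR-β+ cells was 53.0 to 171 CPM in sham, 283 to 329 at UUO-2, 273 to 698 at UUO-7 and 121 to 205 at R-UUO, where it overlapped sham. The part of either shift in the members' values was not tested.

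miR-425-5p in these cells was high only at UUO-7. It was at 84.4, 86.4, 88.4 and 106 CPM in sham, at 69.7, 77.2, 82.9 and 103 at UUO-2, at 125, 129 and 143 at UUO-7, and at 87.6, 94.1, 106 and 117 at R-UUO. The UUO-7 libraries did not overlap those of any other condition. The difference from sham was -0.13 (SE 0.163) at UUO-2, 0.53 (SE 0.175) at UUO-7 and 0.15 (SE 0.163) at R-UUO, and R-UUO was below UUO-7 by 0.39 (log2 difference -0.39, SE 0.175).

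miR-425-3p was at 4.34 to 7.12 CPM in sham PDGFR-β+ cells, at 2.22 to 13.5 at UUO-2, at 9.25 to 17.8 at UUO-7 and at 5.79 to 11.4 at R-UUO. The UUO-7 libraries lay above sham (1.21, SE 0.469) and overlapped the rest. These values depended on the scaling: with DESeq2 size factors the UUO-7 differences of miR-191-5p and miR-425-5p were 0.37 and 0.29, and with library size alone they were 1.13 and 1.04. Non-overlap held for 13.6% of 477 loci at UUO-2 against sham, 58.1% at UUO-7, 38.8% at R-UUO, 50.1% from UUO-2 to UUO-7 and 17.8% from UUO-7 to R-UUO.

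miR-191-3p went the other way from miR-191-5p in PDGFR-β+ cells. It was at 7.35, 8.13, 9.88 and 10.7 CPM in sham, at 2.60, 3.95, 4.59 and 5.55 at UUO-2, at 5.29, 5.44 and 7.33 at UUO-7, and at 4.22, 4.53, 5.93 and 6.00 at R-UUO. All libraries of the 3 other conditions lay below all sham libraries. The differences were -1.09 (SE 0.327, edgeR adjusted p = 0.0603), -0.59 (SE 0.351, edgeR adjusted p = 0.180) and -0.80 (SE 0.320, edgeR adjusted p = 0.0517), none past the threshold, where 6.29%, 48.2% and 41.7% of loci passed. The later steps, UUO-7 against UUO-2 and R-UUO against UUO-7, in which 33.8% and 3.98% of loci passed, gave 0.50 and -0.21 and did not pass either. The DESeq2 alternative called all 3 differences from sham, whereas with library size alone none was called and the edgeR differences were -1.12 (adjusted p = 0.0820), -0.07 (adjusted p = 0.868) and -0.53 (adjusted p = 0.207).

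In ECs 2 separations of a member were seen. miR-191-5p was at 6491 to 6943 CPM in sham, 7036 to 9063 at UUO-2, 6677 to 9089 at UUO-7 and 5709 to 8775 at R-UUO. The UUO-2 libraries alone stood above sham (0.24, SE 0.139), while the EC marker sum of these groups overlapped. The Mac marker sum in ECs was 20.1 to 60.2 CPM in sham and 58.4 to 124 at UUO-2 on the all-library scale, a narrow overlap. The part of either sum in this difference was not tested. With TMM scaling over all libraries sham and UUO-2 overlapped for miR-191-5p too, at 10455 to 10895 and 10608 to 12190 CPM. miR-425-5p was at 64.8 to 73.8 CPM in sham and 56.1 to 105 in the other conditions, with differences from -0.03 to 0.34. miR-425-3p was at 4.87 to 7.57 CPM in sham, and its R-UUO libraries, at 2.47 to 5.66, lay below those of UUO-7, at 5.97 to 7.07 (-0.71, SE 0.327), and overlapped sham (-0.65, SE 0.322). These 2 separations stood beside non-overlap of 12.4% of 469 loci at UUO-2, 24.7% at UUO-7, 26.2% at R-UUO, 7.25% from UUO-2 to UUO-7 and 11.7% from UUO-7 to R-UUO.

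miR-191-3p in ECs was at 2.48 to 4.46 CPM in sham, 1.26 to 2.46 at UUO-2, 2.53 to 4.23 at UUO-7 and 1.82 to 2.09 at R-UUO. The UUO-2 and R-UUO libraries lay below both other groups, with differences from sham of -0.95 (SE 0.320, edgeR adjusted p = 0.159) and -0.82 (SE 0.300, edgeR adjusted p = 0.0626). It passed in none of the 5 EC comparisons, in which 1.71%, 11.5%, 16.8%, 1.92% and 1.07% of loci passed, in the order used for non-overlap.

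In PT cells miR-191-5p showed little difference among conditions, with group means of 16086 CPM ± 2276 (SD, n = 4) in sham, 16537 ± 1450 (n = 4) at UUO-2, 17934 ± 1851 (n = 4) at UUO-7 and 16557 ± 2157 (n = 4) at R-UUO. Its differences from sham, 0.04, 0.16 and 0.04, each had an SE of 0.140, and with library size alone they turned to -0.14, -0.18 and -0.35. miR-425-5p was at 230, 247, 265 and 289 CPM in sham and at 144, 156, 189 and 207 at R-UUO, where it was lower without overlap (-0.57, SE 0.166). The PT marker sum on the all-library scale was also lower there, at 16090 to 64994 CPM against 99853 to 130226 in sham, and the stromal sum was higher, at 3825 to 25835 CPM against 1616 to 3496, both without overlap. Their part in the difference of miR-425-5p was not tested. At UUO-2 (167 to 239 CPM) and UUO-7 (201 to 256 CPM) it overlapped sham. miR-425-3p was at 3.43 to 17.3 CPM over all PT libraries and overlapped in every comparison, with differences from sham of -0.68, -0.61 and -0.79 (SE 0.432, 0.413 and 0.446). Non-overlap held for 35.8% of 330 PT loci at UUO-2, 51.5% at UUO-7, 36.4% at R-UUO, 23.6% from UUO-2 to UUO-7 and 6.97% from UUO-7 to R-UUO. miR-191-3p passed in none of the 5, in which 19.1%, 43.0%, 38.8%, 4.24% and 1.52% of loci passed.

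Taking the 20 comparisons together, miR-191-3p passed the edgeR test in 0, had an unadjusted edgeR p under 0.05 in 6, and was called by DESeq2 in 3. Its libraries did not overlap in 7 (35%), near the share of 29.9% over all loci tested. Of these, 4 were in ECs and 3 in PDGFR-β+ cells, and the group later in the course was the lower in 6 of the 7.

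Ratios of counts within a library do not depend on scaling, and they set the neighbouring hairpins against each other directly. In sham Macs there were 30.4, 33.4, 34.1 and 40.3 reads of miR-191-5p for each read of miR-425-5p. The ratio was 26.8, 35.3, 35.8 and 36.9 at UUO-2, 66.5, 67.4, 75.6 and 91.3 at UUO-7, and 41.7, 62.3, 82.1 and 88.3 at R-UUO. The ratios of sham and UUO-2 Macs overlapped, and the ratio was 2.17-fold higher at UUO-7 and 1.92-fold higher at R-UUO than in sham, with no overlap in either. The lowest R-UUO library missed the highest sham library by a small margin. At UUO-7 it was 2.23-fold above UUO-2. A ratio to miR-191-5p separated the groups for 47.4% of Mac loci at UUO-7, 32.2% at R-UUO and 61.4% from UUO-2 to UUO-7, so miR-425-5p was not unusual in this.

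Sham Macs also had the lowest ratio of the sham sorts. The sham ratio was 58.6 to 65.5 in PT cells, 48.0 to 71.7 in PDGFR-β+ cells and 88.7 to 107 in ECs, and no sham Mac library reached any of these. In PT cells the geometric mean was 62.1 in sham and 95.2 at R-UUO, with 83.3 at UUO-2 and 78.2 at UUO-7. The R-UUO libraries lay above sham, where the ratio to miR-191-5p separated the groups for 32.5% of PT loci. At UUO-7, where 48.3% of PT loci separated, the lowest library, at 65.57, only just passed the highest sham library, at 65.50. That gap depended on the constant added to each count, so UUO-7 was not read as separated from sham. In PDGFR-β+ cells the geometric mean of the ratio was 62.9 in sham and 66.0 at UUO-7, with 88.9 at UUO-2 and 95.0 at R-UUO. The UUO-2 and R-UUO libraries there stood above both sham and UUO-7, where 15.3% of ratios separated from sham to UUO-2, 42.4% from sham to R-UUO, 48.5% from UUO-2 to UUO-7 and 18.3% from UUO-7 to R-UUO. In ECs the ratio ran from 64.9 to 139 and its groups overlapped in all 5 comparisons. At R-UUO it was 64.9, 65.7, 66.0 and 136, against 88.7 to 107 in sham, so 1 high library made that overlap.

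**Figure D3:**
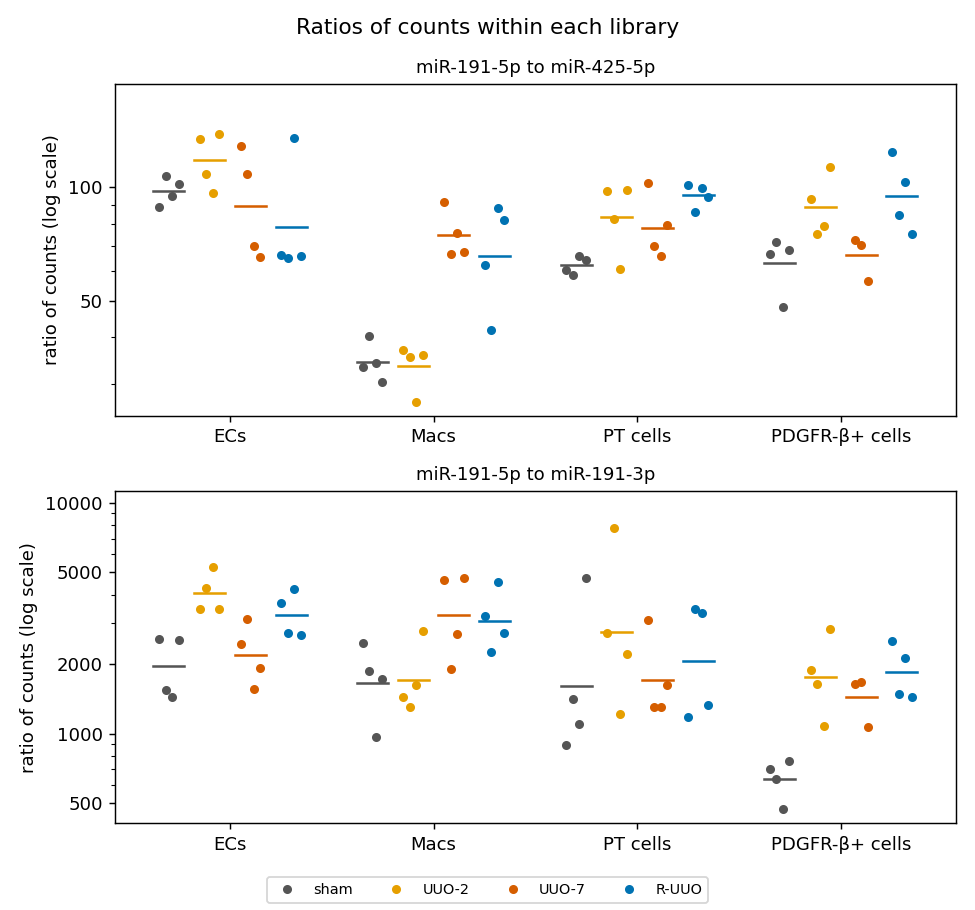
Ratio of miR-191-5p to miR-425-5p counts (top) and of miR-191-5p to miR-191-3p counts (bottom) in every library (points, log axis), with the geometric mean of a group as a line. In Macs the top ratio is 34.4 in sham and 33.4 at UUO-2, against 74.6 at UUO-7 and 65.9 at R-UUO. In PDGFR-β+ cells the bottom ratio is lowest in sham, at 633.

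Arm ratios were taken for both hairpins. The miR-425 arm ratio, 5p over 3p, averaged 22.4 in Macs (range 13.7 to 33.9), 23.1 in PT cells (12.3 to 55.0), 14.3 in ECs (7.56 to 37.6) and 12.9 in PDGFR-β+ cells (5.70 to 29.0), and its groups overlapped in all 20 comparisons. The miR-191 arm ratio was 470, 635, 703 and 763 in sham PDGFR-β+ cells. It was 1079 to 2845 at UUO-2, 1071 to 1681 at UUO-7 and 1443 to 2526 at R-UUO, so every library of the other conditions lay above sham, by 2.78-fold, 2.27-fold and 2.91-fold. The ratio to miR-191-5p separated from sham for 15.3% of PDGFR-β+ loci at UUO-2, 59.2% at UUO-7 and 42.4% at R-UUO. In ECs the arm ratio was 1446 to 2583 in sham and 3465 to 5281 at UUO-2, 2.08-fold higher, and 2672 to 4229 at R-UUO, 1.67-fold higher. EC libraries at UUO-7 (1556 to 3141) overlapped sham and lay below UUO-2. The shares of EC loci that separated were 14.1%, 19.7% and 5.34% at UUO-2, at R-UUO and from UUO-2 to UUO-7. In Macs and in PT cells the groups of the miR-191 arm ratio overlapped in every comparison. The miR-191 arm ratios rest on 2 to 114 reads of miR-191-3p per library.

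The members' patterns were compared over all 63 libraries by the Pearson correlation of log2 CPM, given as a description, since the libraries share mice, sorts and scaling. miR-191-5p and miR-425-5p correlated at r = 0.81 (Spearman's rho 0.78), which placed miR-425-5p 18th among the loci most like miR-191-5p. Within a sort the correlation was 0.44 in PDGFR-β+ cells (n = 15), 0.21 in PT cells, -0.22 in Macs and -0.66 in ECs (n = 16 each). The shared pattern over all libraries therefore lay between sorts more than within them. The miR-425 arms correlated at r = 0.72 over all libraries, at 0.71 within Macs and at 0.67 within PDGFR-β+ cells, but at -0.22 within ECs. The miR-191 arms correlated at r = 0.34.

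**Figure D4:**
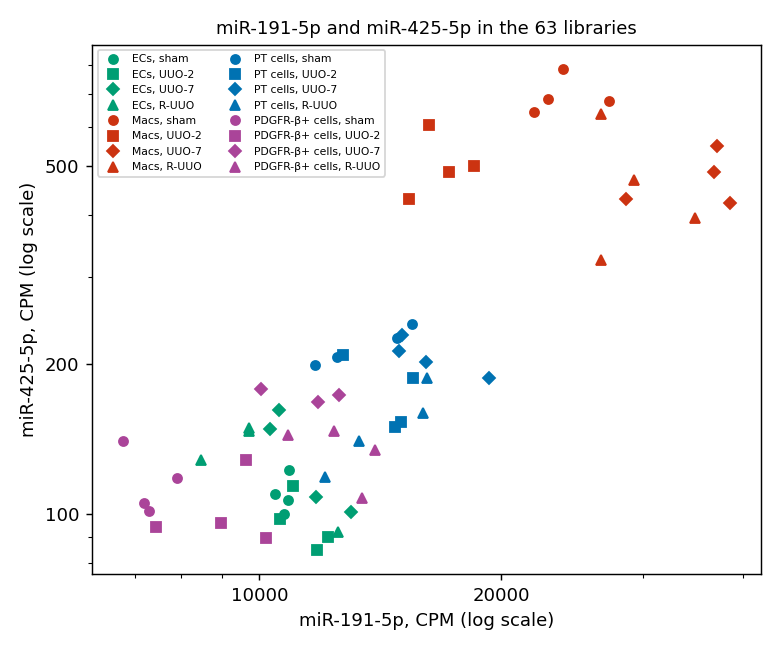
miR-191-5p against miR-425-5p in the 63 libraries (CPM after all-library TMM scaling, both axes log), coloured by cell type with a symbol for each condition. Macs form a separate group at the top, in which UUO-7 libraries have more miR-191-5p and less miR-425-5p than sham. Within Macs r is -0.22.

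The 5 loci most like miR-191-5p were miR-501-3p (r = 0.89), miR-5107-5p (0.87), miR-1249-3p (0.86), miR-423-3p (0.86) and miR-421-3p (0.85). All had their highest mean in Macs, from 157 CPM for miR-1249-3p to 1801 CPM for miR-423-3p. The 5 most like miR-425-5p were miR-340-5p (0.96), miR-1839-5p (0.96), miR-93-5p (0.94), miR-532-5p (0.94) and miR-5107-3p (0.91), again all highest in Macs. miR-340-5p had mean levels of 1006 CPM in Macs, 218 in PT cells, 195 in PDGFR-β+ cells and 133 in ECs. The closest to miR-425-3p was miR-223-3p (0.75), a myeloid miRNA that also served as a Mac marker, followed by miR-3964 (0.75), miR-674-5p (0.73), miR-532-5p (0.73) and miR-1839-5p (0.73).

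miR-191-5p was set against 11 miRNAs commonly used as references in RT-qPCR. The SD of its log2 CPM over the 63 libraries was 0.61, the 27th smallest of 157 loci with a mean of at least 100 CPM, whose median SD was 1.1. miR-425-5p had an SD of 0.93 and was the 56th. The reference miRNAs had a median SD of 0.57, from 0.33 for miR-361-5p to 1.09 for miR-24-3p, and 6 of the 11 varied less than miR-191-5p. miR-103-3p had an SD of 0.37 and let-7a-5p of 0.42. Within sorts the pooled SD was 0.30 for miR-191-5p and 0.31 for miR-425-5p, beside medians of 0.30 for the reference miRNAs and 0.53 for the 157 loci. Much of the spread of both members was thus between sorts.

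miR-489-3p, which shares the seed of miR-425-5p, was scarce. It had 0 to 1 counts in Mac and PDGFR-β+ libraries, 0 to 5 in ECs and 0 to 29 in PT cells. In PT cells it was at 0 in all sham libraries and averaged 3.04 CPM at UUO-2 and 3.01 at UUO-7, against 175 and 208 CPM for miR-425-5p on the same all-library scale.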

How the data were processed

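Small RNA was sequenced from 63 FACS-sorted libraries, 4 per group except 3 UUO-7 PDGFR-β+ libraries. The authors deposited raw counts per miRNA locus, made by trimming (Trim Galore 0.4.1, cutadapt 1.1) and ShortStack with Bowtie on GRCm38 and miRBase. Strand use and the placement of multi-mapped reads are not given in the sources used here. A column of totals that covers further libraries was not used.

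The count analysis used edgeR 4.0.16 under R 4.3.3 (filterByExpr, TMM, quasi-likelihood fit), over all 63 libraries with 16 groups for cell types (671 loci) and within each cell type for injury (330 to 477 loci). Calls needed a Benjamini-Hochberg adjusted p below 0.05 and a fold change above 1.5. Log2 CPM used a prior count of 2, and ratios added 0.5 to each count. Groups were said not to overlap when every library of one lay above every library of the other. The fits were also run on simulated counts with 1 spread common to all loci, unlike these data, and no statement here rests on that run. Alternatives were DESeq2 1.42.0, other scalings, no filter, replicate blocks and leaving out each replicate.

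Members, marker and reference lists were chosen with earlier results of these data known. The text names the members and miR-191-3p, the 5 loci most correlated with each member, the listed markers and references, and miRNAs sharing a seed with a member. Libraries with 1 number in 1 condition came from 1 mouse. Deviations from group means of such pairs correlated at a median r of 0.049 (93 pairs, 31 above 0.1). Blocking on the mouse changed no call of miR-191-3p. The number pairs no mice across conditions.

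All 93 replicate pairs differed by more than sampling noise (chi-square per degree of freedom of 8.96 or more). The replicates were separate mice. Counts of the rarest arms go down to 2, and depth was lowest in PT cells.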

Additional observations from a re-analysis of the deposited data

Results flagged for a closer look

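Of 60 groups of 4 libraries examined (3 members and miR-191-3p), 3 held a library far from the other 3, where chance gives about 1 in 20. On the all-library scale miR-425-5p was at 128 CPM in UUO-2 PDGFR-β+ replicate 2, with the next library at 95.8 CPM. miR-425-3p was at 26.4 CPM in sham Mac replicate 1, with the next at 43.7 CPM. miR-425-3p was at 30.4 CPM in UUO-7 Mac replicate 5, with the next at 14.8 CPM.

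The same contrast took opposite directions in different cell types, with no overlap of libraries in either, in 2 cases, and the difference between the cell types was not tested. For UUO-2 against sham, miR-191-5p was higher in ECs (log2 difference 0.24, SE 0.139) and lower in Macs (-0.32). With TMM scaling over all libraries these EC groups overlapped, at 10455 to 10895 CPM in sham and 10608 to 12190 at UUO-2. For UUO-7 against sham, miR-425-5p was lower in Macs (-0.42) and higher in PDGFR-β+ cells (0.53).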

How the results depend on the processing

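Scaling moved values most. With library size alone, all loci shifted by a median of 0.52 (log2) in PDGFR-β+ cells at UUO-7, and the differences from sham there were 1.13 for miR-191-5p, 1.04 for miR-425-5p and 1.71 for miR-425-3p. At R-UUO they were 1.03 for miR-191-5p and 0.42 for miR-425-5p. In Macs at UUO-7 miR-425-5p was at -0.29, and the Mac difference from the other sorts was 2.09, 2.86 and 2.38 for miR-191-5p, miR-425-5p and miR-425-3p. With DESeq2 size factors or the DESeq2 test, miR-191-5p in PDGFR-β+ cells was at 0.37 at UUO-7 and 0.57 at R-UUO, and miR-425-5p at 0.29 at UUO-7, while at R-UUO its sign turned, to -0.037 with the size factors and -0.034 with the test. Without the low-count filter the Mac values were -0.54 for miR-425-5p at UUO-7 and 0.14 for miR-191-5p at R-UUO. With only the 2 compared groups in the fit, miR-425-5p in UUO-7 Macs was at -0.56. The Mac ratio of miR-191-5p to miR-425-5p does not use scaling. Of 72 member differences, 10 changed sign with library size alone and 2 to 8 under each other alternative over all 72, and none of these had separated libraries. The cause of each shift beyond the scaling was not tested.

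miR-191-3p gained calls under some alternatives. They were -1.10 in ECs at R-UUO against sham and 1.04 in PDGFR-β+ cells from UUO-2 to UUO-7 with library size alone. In PDGFR-β+ cells against sham they were -1.20, -0.83 and -0.98 with DESeq2 size factors (at UUO-2, at UUO-7 and after reversal), -1.17, -0.84 and -0.99 with DESeq2, and -0.86 at R-UUO with the 2 groups alone. No calls were lost.

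Leaving out each replicate in turn left 21 to 27 separated pairs of member and comparison in place of 16, as fewer libraries overlap less. In Macs at UUO-7 the differences from sham ran from 0.52 to 0.77 for miR-191-5p, from -0.59 to -0.37 for miR-425-5p and from -1.51 to -0.84 for miR-425-3p, and at R-UUO from 0.13 to 0.47 for miR-191-5p, lowest without replicate 1. With the replicate number as a block within a cell type, 1674 locus calls were made over the 20 injury comparisons in place of 1846, and with the mouse as a block 1476 in place of 1479 between cell types. The block changed no call of miR-191-3p. The number does not pair mice across conditions (74 pairs, median r -0.017).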
